A study of Homo sapiens with 14 samples.

Results

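The non-targeting guides are the internal controls of this pooled CRISPR interference screen. They were taken as the guides whose name in the count tables starts with "non-targeting". There were 1878 of them among 103758 guides, or 1.81%, spread over the 7 sublibraries H1 to H7. Both libraries of a sublibrary, bright and dim, were complete for 6 sublibraries, which held 1628 non-targeting guides, and the other 250 were in H4, where only the dim library could be used.

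HEK293 FLP-In, a line of human embryonic kidney origin with a docking site for transgenes, was the host of the screen. The cells expressed the delta opioid receptor (DOR) fused to the peroxidase APEX2 (pUBC-SSF-DOR-APEX2) and the repressor dCas9-KRAB-BFP, from populations that had been grown from clones and tested for knockdown. Every group carried both transgenes, had been transduced at a multiplicity near 0.2, kept in puromycin (0.75 µg/ml) for 3 days and assayed after 8 days of growth. All then received 10 µM of the opioid peptide DADLE for 90 minutes, 100 µM Amplex UltraRed, and 50 µM hydrogen peroxide for a reaction of 1 minute, so there was no unstimulated group. The groups were the bottom (dimmest) and the top (brightest) quartile of each sublibrary, sorted and sequenced once each. The sublibraries held different guides and were not repeats of one sort. A p-value over them therefore asks whether a difference keeps its direction across sublibraries, not whether a sort repeats. The tables of the bottom libraries are marked forward and those of the top libraries reverse. No label says what the marks stand for, and they cannot be told apart from the quartile.

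In CRISPR interference a guide RNA carries a nuclease-dead Cas9 with a KRAB repressor domain to the start of a gene, where transcription is lowered. A non-targeting guide has the same scaffold and is expressed in the same way, but its targeting stretch is designed to match no site in the genome. Cells that carry such guides are handled, selected and sorted like all others. The distribution of their bright-to-dim ratios therefore serves in such screens as the background against which guides to genes are read. These guides have no genome position, and the tables give their names and counts without their sequences.

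The names number the non-targeting guides in a single run from 0 to 1894, and each sublibrary holds a consecutive block of it. H1 holds numbers 0 to 249, H2 250 to 529, H3 530 to 819, H4 820 to 1069, H5 1070 to 1319, H6 1320 to 1569 and H7 1570 to 1894. No name occurred in 2 sublibraries, so the controls of different sublibraries are different guides. In H1 to H5 every number of the block was listed. In H6 5 of 250 numbers were not listed in either library, and in H7 12 of 325. These 17 numbers, 2.00% of the block in H6 and 3.69% in H7, have no value and enter nothing that follows.

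The counts of the controls lay close to those of the guides to genes, while their evenness differed between sublibraries. Totals over all guides ran from 16805160 counts in H4 bottom to 34636612 in H2 top. The median count of a non-targeting guide was 1719 in H1 bottom and 2100.5 in H1 top, 1550.5 and 2086 in H2, 1588 and 1801 in H3, 1707.5 and 1389.5 in H5, 1190 and 1564 in H6, and 1143 and 1180.5 in H7. In H4 bottom it was 1363.5. Relative to the median guide to a gene of the same library, the controls stood highest in H1 bottom, at 1.11 times that median, and lowest in H7 top, at 0.919 times. In H2, H3 and H6 the ratio lay between 0.983 and 1.04 in both libraries. Over the 7 bottom libraries the log2 of this ratio was 0.03 ± 0.09 (SD, n = 7 sublibraries), above 0 in 4 and below 0 in 3, with an exact two-sided sign-flip p of 0.344 and a Benjamini-Hochberg adjusted p of 0.430 over the 5 tests made here. The mean was 0.0115 without H1, 0.0132 without H5 and 0.0563 without H7, and 0.00478 when means of log2 counts replaced the medians.

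Evenness was greatest in H3 and least in H7. The 90th percentile of the control counts was 3.12 times the 10th in H3 bottom and 3.16 times in H3 top, but 12.1 times in H7 bottom and 11.2 times in H7 top. H4 bottom, at 3.42 times, was close to H3, and H2 stood at 3.67 and 3.60 times, H5 at 4.97 and 5.02, H1 at 5.25 and 4.93, and H6 at 6.15 and 6.19. The SD of the log2 counts was 0.706 in H3 bottom, 0.710 in H4 bottom and 1.60 in H7 bottom. Guides to genes had 0.691, 0.786 and 1.50 in the same libraries, so H7 was uneven in both classes. Under 500 counts were found for 23.3% of the controls in H7 bottom and 20.8% in H7 top, against 2.41% and 1.72% in H3. Among guides to genes in H7 the shares were 19.5% and 18.9%.

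The same controls were the most frequent in both libraries of 4 sublibraries. The guide non-targeting_00239 had 8448 counts in H1 bottom and 9555 in H1 top, 4.91 and 4.55 times the control median of those libraries. In H7, non-targeting_01707 had 8222 and 7788 counts, or 7.19 and 6.60 times the median. In H5, non-targeting_01163 had 4868 and 3927 counts, and in H6 non-targeting_01445 had 4550 and 5737. In H2 the highest were non-targeting_00390 in the bottom library with 4520 counts and non-targeting_00368 in the top library with 6173. In H3 they were non-targeting_00659 with 3425 and non-targeting_00792 with 3757, about 2.16 and 2.09 times the median. In H4 bottom non-targeting_00893 had 2950 counts. A control's abundance thus carried over from one quartile to the other. The Pearson correlation of log2 counts between top and bottom lay between 0.952 in H2 and 0.973 in H5, over 241 to 308 controls per sublibrary, which share the sublibrary's pool of virus and its cells.

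The controls' share of the counts differed little between the bright and the dim quartile. The share was 1.992% in H1 bottom and 1.989% in H1 top, 1.742% and 1.721% in H2, and 1.666% and 1.633% in H3. It was 2.011% and 1.994% in H5, 1.838% and 1.831% in H6, and 1.566% and 1.547% in H7. H4 bottom had 2.056%. The exact binomial 95% intervals (Clopper-Pearson) of the paired libraries overlapped in H1 and H6, where the H1 interval ran from 1.986% to 1.997% for the dim library and from 1.984% to 1.995% for the bright one. These intervals treat each read as an independent draw. The log2 ratios of the controls spread 3.53 to 4.39 times wider than counting alone would give. A lack of overlap in the other sublibraries therefore does not show a difference. The mean difference was -0.017 ± 0.011 percentage points (SD, n = 6 sublibraries), lower in 6 of 6. The exact two-sided sign-flip p was 0.031, the smallest that 6 sublibraries allow, and the Benjamini-Hochberg adjusted p was 0.0781, which did not pass 0.05. With 5 tests adjusted together, a p at this floor cannot pass unless most of the other tests are about as small. With DESeq2 size factors in place of library totals the mean difference was -0.011 points, lower in 4 of 6 (exact sign-flip p 0.125). With edgeR scaling it was -0.0111 points, lower in 5 of 6 (exact sign-flip p 0.0938). Without the most frequent control of each sublibrary it was -0.0156 points, lower in 5 of 6 (exact sign-flip p 0.0625). The spread of the log2 counts among controls was lower in the top library in 5 of 6 sublibraries, with a mean top minus bottom difference of -0.0375 ± 0.0506 on the log2 scale (SD, n = 6), an exact sign-flip p of 0.0625 and an adjusted p of 0.104. H6 had the widest gap, 1.38 in the bottom against 1.25 in the top library, and without H6 the mean difference was -0.0184. These SDs had no minimum of counts, and the H6 bottom value includes non-targeting_01429, absent there and entered as 0. With 10 in place of 1 added to each count the mean difference was -0.0229, lower in 6 of 6 (exact sign-flip p 0.031, adjusted p 0.0521). By the scaled median absolute deviation H6 had 0.994 in the bottom and 1.09 in the top library, and the mean difference over sublibraries was -0.00535 (exact sign-flip p 0.812).

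For each guide the log2 ratio of its share in the top to its share in the bottom library was taken after 1 was added to each count, and was centred on the control median of its sublibrary. Positive values mean that cells with the guide were more frequent in the bright quartile. A guide needed 50 counts in at least 1 of the libraries. Of the 1628 controls 1619 passed and 9 did not, 4 in H6 and 5 in H7. Before centring the control medians lay between -0.025 in H5 and 0.001 in H1. The medians of guides to genes stood between -0.005 in H6 and 0.023 in H5 relative to the controls. The controls and the bulk of the guides to genes thus sat at nearly the same centre in each sublibrary.

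The spread of the controls was not the same in all sublibraries. The SD of their log2 ratios was 0.215 in H3 (n = 290 guides), 0.228 in H5 (n = 250), 0.240 in H2 (n = 280), 0.265 in H1 (n = 250), 0.272 in H6 (n = 241) and 0.333 in H7 (n = 308). The range from the 5th to the 95th percentile was -0.35 to 0.35 in H3 and -0.60 to 0.50 in H7. It was -0.29 to 0.43 in H1, -0.37 to 0.44 in H2, -0.32 to 0.38 in H5 and -0.45 to 0.45 in H6. The central part of the distribution differed less than the SD. Scaled median absolute deviations, which give far guides little weight, were 0.186 in H5, 0.193 in H1, 0.203 in H3, 0.214 in H6, 0.225 in H2 and 0.234 in H7. The SD exceeded this robust value 1.43 times in H7 and 1.38 times in H1, against 1.06 times in both H2 and H3. H1 moved from the third widest sublibrary by SD to the second narrowest by the robust measure. Each sublibrary was sorted once, so the neighbours in these orders have no replicate error to be read against.

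Controls with few counts had wide ratios in the 3 sublibraries that held at least 20 of them, and H7 held the most. Among controls with under 500 counts on average over both libraries the SD was 0.483 in H5 (n = 22 guides), 0.443 in H6 (n = 21) and 0.600 in H7 (n = 62). H1, H2 and H3 had 13, 10 and 5 such controls, too few to describe a spread. From 500 to 1000 counts the SD lay between 0.219 in H5 and 0.320 in H2. From 1000 to 2000 counts it lay between 0.189 in H7 and 0.259 in H1, and above 2000 counts between 0.126 in H5 and 0.223 in H6. H7, the widest over all controls, was thus the narrowest among controls of 1000 to 2000 counts. The share of controls with under 500 counts was 20.1% in H7, against 8.80% in H5, 8.71% in H6, 5.20% in H1, 3.57% in H2 and 1.72% in H3. When the windows from 500 counts up were given the same weights in each sublibrary, the SD became 0.209 in H7 and 0.208 in H3. On that scale it was 0.187 in H5, 0.218 in H1, 0.236 in H6 and 0.247 in H2. Controls under 500 counts are left out of it. With at least 500 counts in either library and no weights, the SD was 0.240 in H7 and 0.207 in H3. The windows below 1000 and above 2000 counts and these weights were chosen after the data had been seen. The value above 2000 counts in H6 rests in part on non-targeting_01345, described below, and the robust spread there was 0.161.

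In each of the 6 sublibraries the controls varied far more than counting alone would give. The SD expected from the numbers of reads was 0.0546 in H2, 0.0565 in H3, 0.0623 in H1, 0.0646 in H5, 0.0683 in H6 and 0.0843 in H7. The observed SD was 3.53 times that in H5, 3.81 times in H3, 3.95 times in H7, 3.99 times in H6, 4.26 times in H1 and 4.39 times in H2. Across the count windows with at least 20 controls this multiple ran from 2.91 to 5.68, the highest above 2000 counts in H6. The spread in H3 was that of counting 90.1 independent events in each library, and the spread in H7 that of counting 37.5. The other sublibraries came to 79.8 in H5, 72.5 in H2, 59.1 in H1 and 56.2 in H6. From the robust spread the numbers were 121 in H5, 112 in H1, 101 in H3, 91.2 in H6, 81.9 in H2 and 76.2 in H7, and among controls of 1000 to 2000 counts H7 came to 116 by SD. These figures restate a spread as an event number, differ between the measures, and are not a measured number of cells or molecules. The reads carried no molecular identifiers that would tell copies of a molecule apart, so the intervals of ratios and of shares of counts cover counting error only. Intervals for a share of controls cover the draw of guides and no error between sorts.

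A counting interval alone would therefore separate most controls from their own centre. The exact 95% interval of the ratio, from the counts of the guide in both libraries, left out 0 for 1006 of the 1619 controls, or 62.1%. Over all 91088 guides it left out 0 for 63.8%. The share among controls was 54.8% in H5, 60.6% in H6, 61.0% in H7, 63.1% in H3, 63.6% in H1 and 68.9% in H2. The share among controls was thus close to that among all guides.

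Controls far from their centre were rare. A log2 ratio of at least 1 in size, which is a doubling or halving of the share, was found for 10 of 1619 controls, or 0.618%, beside 1.93% of all guides. Of these 7 were higher in the top library, beside 1.28% of all guides, and 3 in the bottom library, beside 0.653%. H7 had 5 of 308 controls this far, or 1.62% (exact 95% interval 0.529% to 3.75%), beside 1.89% of its guides. H1 had 2 of 250, beside 1.83%, H6 had 2 of 241, beside 1.58%, and H5 had 1 of 250, beside 2.12%. H2 had 0 of 280, beside 2.15%, and H3 had 0 of 290, beside 1.96%. Taking 3 guides as the limit that a count of 0 allows, the shares could be up to 1.07% in H2 and 1.03% in H3, and the exact 95% upper bounds were 1.31% and 1.26%. Of the 10 far controls 9 averaged under 500 counts.

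At the smaller distance of 0.5 the shares of the sublibraries lay further apart. There were 34 of 308 controls beyond it in H7, or 11.0% (exact 95% interval 7.77% to 15.1%), beside 9.57% of all H7 guides. That interval treats the guides of 1 sort as independent and holds no error between sorts. H6 had 19 of 241, or 7.88%, beside 8.98%, and H1 had 13 of 250, or 5.20%, beside 7.53%. H2 had 12 of 280, or 4.29%, beside 8.88%, H5 had 8 of 250, or 3.20%, beside 8.78%, and H3 had 7 of 290, or 2.41%, beside 7.53%. Over the 6 sublibraries 93 controls, or 5.74%, lay beyond 0.5, beside 8.58% of all guides. H7 was the 1 sublibrary in which the share among controls was above that among all its guides. Of the 133 controls with under 500 counts 44 lay beyond 0.5, or 33.1%, against 49 of 1486, or 3.30%, of those with more.

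The farthest of the 1619 controls was non-targeting_01748 in H7. It had 67 counts in the bottom and 246 in the top library, or 2.30 and 8.20 CPM (counts per 1000000 of the library). Its log2 ratio of 1.82 (exact 95% counting interval 1.44 to 2.25) was 5.47 times the SD of the H7 controls. The next control on that side of H7, non-targeting_01859, had 241 and 523 counts and a ratio of 1.08. On the dim side of H7 were 3 controls beyond 1, the only ones on that side in the 6 sublibraries. These were non-targeting_01860 with 117 and 50 counts and a ratio of -1.25, non-targeting_01766 with 362 and 166 counts and -1.16, and non-targeting_01720 with 151 and 71 counts and -1.12.

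In H1 both far controls were on the bright side. The guide non-targeting_00158, the least frequent control of H1, had 25 counts in the bottom and 98 in the top library and a log2 ratio of 1.61 (exact 95% counting interval 1.01 to 2.35). The guide non-targeting_00145 had 159 and 499 counts and a ratio of 1.33. The lowest controls of H1, non-targeting_00067 with 347 and 239 counts and non-targeting_00027 with 149 and 103 counts, had ratios of -0.85 and -0.84. The guide non-targeting_00158 passed the minimum of 50 counts through the top library alone. With 50 counts required in both libraries it dropped out, the H1 share beyond 1 was 0.402% and the SD 0.246.

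H6 held the far control with the most counts. The guide non-targeting_01345 had 1064 counts in the bottom and 3256 in the top library, or 58.9 and 137 CPM. Its log2 ratio was 1.22 (exact 95% counting interval 1.12 to 1.32), a 2.33-fold higher share in the bright quartile. The other far control of H6, non-targeting_01506, had 93 and 252 counts and a ratio of 1.04. The lowest controls of H6 were non-targeting_01474 with 207 and 152 counts at -0.83 and non-targeting_01456 with 566 and 459 counts at -0.69.

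In H5 the control non-targeting_01090 stood alone, with 136 counts in the bottom and 276 in the top library and a log2 ratio of 1.32. The next, non-targeting_01168, had 324 and 449 counts and a ratio of 0.77. The lowest of H5 were non-targeting_01302 with 619 and 310 counts at -0.69 and non-targeting_01210 with 885 and 456 counts at -0.65.

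H2 and H3 had short tails on both sides. In H2 the highest controls were non-targeting_00322 with 1970 and 3853 counts at 0.62 and non-targeting_00379 with 764 and 1482 counts at 0.61. The lowest were non-targeting_00311 with 758 and 580 counts at -0.73 and non-targeting_00432 with 1341 and 1049 counts at -0.70. In H3 the highest were non-targeting_00718 with 406 and 827 counts at 0.83 and non-targeting_00773 with 127 and 241 counts at 0.72. The lowest were non-targeting_00654 with 847 and 605 counts at -0.68 and non-targeting_00628 with 136 and 102 counts at -0.61. Each of these H2 controls had at least 580 counts in both libraries.

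The upper and lower tails did not differ in a common direction. From the median to the 95th percentile the controls spanned 0.43 in H1 and 0.50 in H7, and from the 5th percentile to the median 0.29 in H1 and 0.60 in H7. The upper tail was the longer by 0.13 in H1, 0.07 in H2 and 0.06 in H5, the lower tail by 0.09 in H7, and in H3 and H6 the sides differed by less than 0.01. The mean difference was 0.03 ± 0.08 (SD, n = 6 sublibraries), with an exact two-sided sign-flip p of 0.469 (Benjamini-Hochberg adjusted 0.469). Without H1 it was 0.00667 and without H7 0.0520.

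The 9 controls under 50 counts in both libraries were left out of the ratios. In H6, non-targeting_01375 had 16 counts in the bottom and 32 in the top library, non-targeting_01492 had 18 and 37, and non-targeting_01455 had 44 and 29. The fourth of H6, non-targeting_01429, was not listed in the bottom library and had 24 counts in the top. Against a floor of 3 counts in the bottom library its share was 6.10-fold higher in the top. The exact 95% lower limit, which also holds the counting error of the 24 counts, was 4.59-fold. In H7, non-targeting_01694 had 25 and 33 counts, non-targeting_01745 had 33 and 48, and non-targeting_01738 had 18 and 4. The guide non-targeting_01741 was not listed in H7 bottom and had 49 counts in the top library. Its share was 15.9-fold higher against that floor and at least 12.5-fold by the exact limit. The guide non-targeting_01635 had 20 counts in the bottom library and was not listed in the top. Its share there was 6.87-fold lower against that floor and at least 5.07-fold by the exact limit. The exact limits cover counting error only. With these 9 included the SD was 0.392 in H6 and 0.535 in H7.

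Guides to genes had the higher SD in each sublibrary, by the least in H7. The SD of guides to genes was 0.357 in H1, 0.349 in H2, 0.322 in H3, 0.351 in H5, 0.375 in H6 and 0.367 in H7. It was 1.53 times that of the controls in H5, 1.50 times in H3, 1.46 times in H2, 1.38 times in H6, 1.34 times in H1 and 1.10 times in H7. The controls had the lower SD in 6 of 6 sublibraries, with a mean difference of -0.0944 ± 0.0315 (SD, n = 6). The exact sign-flip p, paired by sublibrary, was 0.031, the smallest that 6 sublibraries allow, and the adjusted p of 0.0781 did not pass 0.05. As for the share of counts, a p at this floor could not pass unless most of the other tests were about as small. With no filter on counts the mean difference was -0.0592, lower in 5 of 6 (exact sign-flip p 0.156). Without the pairing an exact permutation test gave an adjusted p of 0.0216. That test ignores that both classes of guide come from the same libraries, and it can reach a smaller p than 6 pairs allow. By the scaled median absolute deviation the mean difference was -0.0177, and H7 had 0.234 for controls and 0.230 for guides to genes. By that measure guides to genes were from 0.986 times as wide as the controls in H7 to 1.21 times in H5.

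The limits set by the controls let through different shares of the guides to genes. Above the 95th percentile of the controls lay 9.34% of the guides to genes in H5, 8.56% in H3, 7.01% in H2, 6.07% in H6, 5.98% in H1 and 4.96% in H7. Below the 5th percentile lay 10.8% in H1, 8.65% in H5, 7.02% in H2, 6.82% in H3, 5.05% in H6 and 3.06% in H7. The controls themselves have 5% beyond each limit by construction. Beyond the highest control lay 613 guides to genes in H2, or 3.83% of them, and 313 in H3, or 1.88%. There were 92 in H6 (0.728%), 76 in H5 (0.610%), 62 in H1 (0.486%) and 35 in H7 (0.184%). Below the lowest control lay 288 in H3 (1.73%), 219 in H5 (1.76%) and 211 in H2 (1.32%). There were 118 in H6 (0.933%), 104 in H1 (0.816%) and 85 in H7 (0.447%). A limit at the outermost control rests on 1 guide. In H1, H5 and H7 that guide was non-targeting_00158, non-targeting_01090 and non-targeting_01748 on the bright side, which stood 0.29, 0.55 and 0.75 beyond the next control. The H1 guide passed the minimum of counts through the top library alone, and guides to genes could pass in the same way. Without it the highest H1 control was at 1.33. In H2 the highest control stood 0.01 beyond the next. The mean of 5 independent guides with the spread of the controls would have an SD of 0.0961 in H3 and 0.149 in H7.

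Guides to olfactory receptor genes, a family of odorant receptors of nasal sensory neurons, offered another set with little expected effect in kidney-derived cells. At least 30 such guides were present in H3, H6 and H7. In H6 the 1716 olfactory receptor guides had a median log2 ratio of -0.01, an SD of 0.289 and a scaled median absolute deviation of 0.195, against 0.272 and 0.214 for the 241 controls. In H7 the 78 olfactory receptor guides had an SD of 0.249 and a robust spread of 0.173, against 0.333 and 0.234 for the controls. Their median count over both libraries was 1648 in H7, against 1195 for the controls, and 1692 against 1381 in H6. In H3 the 30 olfactory receptor guides had an SD of 0.212, against 0.215. Beyond 0.5 lay 5.83% of the olfactory receptor guides and 7.88% of the controls in H6, 3.85% and 11.0% in H7, and 3.33% and 2.41% in H3. Beyond 1 in H6 lay 22 olfactory receptor guides, or 1.28%, against 0.830% of the controls. The olfactory receptor guides had the higher counts in all 3 sublibraries, with 2210 against 1697 in H3. The direction of the difference in SD was not the same in all. By the scaled median absolute deviation these guides were the narrower in all 3, though in H3 only by 0.201 against 0.203. The part of the counts in these differences was not tested.

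DNAJC13, the endosomal J-domain protein in the title of the series, is in H3, the sublibrary with the narrowest controls by SD. Its 5 guides had log2 ratios of 0.47, 0.54, 0.71, 0.87 and 1.08. Of the 290 H3 controls 0 lay above the highest pair, 2 above the guide at 0.71 and 5 above each of the other guides. Of all guides to genes in H3, 313 or 1.88% lay above the highest control. The gene was taken from the title, which may itself draw on this screen, so its place is a description and not a test. The 5 values correspond to 2.20, 2.53, 3.28, 4.05 and 5.00 times the SD of the H3 controls.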

How the data were processed

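Integrated guides of the sorted cells were read by sequencing after 27 PCR cycles. The authors deposited whole-number counts of reads per guide, without normalization; the submitters' processing notes name Bowtie and state no version or settings. A guide absent from 1 library of a sublibrary was set to 0 there. The H4 top table ended after 35 complete guides with 0 controls and was not used, so 13 of 14 libraries entered.

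Libraries were grouped by quartile and paired by sublibrary, since both quartiles came from the same transduced cells. With 1 library per quartile and sublibrary, no count model such as edgeR's quasi-likelihood test could be fitted, and spreads and tails are descriptions. The 5 tests over sublibraries were exact two-sided sign-flip tests (scipy 1.17.1) with Benjamini-Hochberg adjustment and a threshold of 0.05. Alternatives changed the pseudocount of 1, the minimum of 50 counts, the centre, the measure of spread and the scaling (edgeR 4.0.16, DESeq2 1.42.0). Named guides were the outermost pair on each side of each sublibrary, those under 50 counts and the most frequent of each library; others beyond 1 are given because the whole count is listed. Members and choices were made with earlier results of these data known.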

Additional observations from a re-analysis of the deposited data

Results flagged for a closer look

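Among 23 sets of values over sublibraries 2 had a sublibrary that stood far from the rest, where chance gives about 1 in 20, and both were H7. The sets share libraries and guides and are not independent, and 2 flags are few enough to arise at that rate. The 90th percentile of the control counts in H7 bottom was 12.1 times the 10th, and the other 6 bottom libraries lay between 3.12 and 6.15 times. The lowest control ratio of H7 was -1.25, and the lowest of the other 5 sublibraries lay between -0.85 and -0.68. A lowest value also depends on the number of controls, which was 308 in H7 and 241 to 290 in the others.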

How the results depend on the processing

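The 5 tests over sublibraries kept the direction of their mean difference under each alternative, and 1 call changed. The lower SD of controls than of guides to genes, -0.0944, passed with no replicate block (exact permutation, adjusted p 0.0216). It did not pass with sublibraries paired (sign-flip, adjusted p 0.0781). The test without the block ignores the pairing and can reach a smaller p than the paired test. Leaving out 1 sublibrary at a time gave -0.107 to -0.0889 for this SD difference. It gave -0.0194 to -0.0132 percentage points for the share of counts. With 5 sublibraries such a test cannot pass 0.05. H7 was widest under 7 and H3 narrowest under 6 of 13 alternatives. Those 6 changed the pseudocount or the minimum of counts, left out the farthest guide, or took off counting error. The 13 alternatives include windows and weights added after the data had been seen. Among them is the window under 500 counts, with H1 widest on 13 controls and H2 narrowest on 10. The scaled median absolute deviation gave 0.186 in H5, 0.193 in H1, 0.214 in H6 and 0.234 in H7. With at least 500 counts in either library the SD was 0.209 in H1 and 0.240 in H7, and the share beyond 1 was 0% in H1 and H5 and 0.398% in H7. With no filter on counts the SD was 0.392 in H6 and 0.535 in H7. Among controls of 1000 to 2000 counts it was 0.211 in H6 and 0.189 in H7, and the share beyond 1 was 0% in H1, 0% in H5, 0% in H6 and 0% in H7. The following windows were added after the data had been seen. Under 500 counts the SD was 0.483 in H5, 0.443 in H6 and 0.600 in H7; in H1, H2 and H3 it was 0.762, 0.331 and 0.624 on 13, 10 and 5 controls, too few to compare. From 500 to 1000 counts it was 0.320 in H2 and 0.294 in H3. Above 2000 counts it was 0.147 in H1, 0.184 in H2, 0.153 in H3, 0.126 in H5, 0.223 in H6 and 0.167 in H7. With the same window weights in each sublibrary, and controls under 500 counts left out, it was 0.218 in H1 and 0.209 in H7. At a distance of 0.5 in place of 1 the share beyond was 5.20% in H1, 4.29% in H2, 2.41% in H3, 3.20% in H5, 7.88% in H6 and 11.0% in H7. The control median before centring, -0.001 in H6, was 0.005 with either scaling. Both pseudocounts, 50 counts in both libraries, the farthest guide and counting error moved no SD beyond the spread between sublibraries. One sort per quartile limits what depth can add.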
